A study of Mus musculus with 22 samples.

Results

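Spinal cord from below the sixth thoracic level (T6) of sham-operated mice was set against cord from above it, on the 7 sham arrays among the 22 of the series. They were chosen by the region in their sample label, which gives 3 caudal arrays (numbered 278, 279 and 280) and 4 rostral arrays (277 to 280). All came from wild-type C57Bl/6 mice of 10 to 12 weeks that had a sham operation with no clamp on the aorta. A second pair of groups, 4 caudal and 4 rostral arrays from mice of the same strain 48 h after a clamp of 7.5 min on the aorta, served to set the same regional difference in other samples beside the first. Affymetrix Mouse430_2 arrays measured total RNA of the whole piece of tissue, so fewer cells of a type and less RNA per cell cannot be told apart. The labels name no separate animal for each array, and p-values therefore measure the spread between these samples, which may be technical.

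Position along the body axis is written in the spinal cord by Hox genes, transcription factors that lie in 4 clusters (Hoxa to Hoxd) and carry paralog numbers from anterior to posterior. Low-numbered genes are active from the hindbrain and neck down, and high-numbered genes in the lower thoracic, lumbar and sacral cord. A dissected cord may also carry nerve roots, whose axons are wrapped by Schwann cells, dorsal root ganglia with the cell bodies of sensory neurons, and the meninges, the fibroblast-rich sheaths around the cord.

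The values are the authors' log2 signals, and 18193 genes were tested, each through 1 probe set. Array medians lay between 6.85 and 6.88 in caudal and between 6.84 and 6.85 in rostral samples. Markers of cord tissue were abundant in both regions: Snap25, a synaptic protein gene, had 13.45, 13.55 and 13.40 on caudal arrays 278, 279 and 280, against 13.55, 13.42, 13.46 and 13.51 on rostral arrays 277 to 280, and Mbp, of central and peripheral myelin, lay between 14.54 and 14.59 on all 7 arrays. Below, the values of a gene follow this order of arrays. Caudal array 280 stood apart in RNA quality: the 5-prime signal of its Gapdh control was lower than the 3-prime signal by a log2 difference of −0.68, and that of Actb by −1.46. On the other caudal arrays these differences were −0.20 and −0.13 for Gapdh and −0.98 and −0.874 for Actb. On the rostral arrays they lay between −0.11 and 0.04 for Gapdh and between −0.867 and −0.74 for Actb. Every caudal array was thus below every rostral array in both controls, so that this measure of RNA quality went with region. The part of RNA quality or of caudal array 280 in the results was not tested. Of 140 called genes named here or by the rule for named genes, 112 were called without caudal array 280. Leaving out any 1 of the other sham arrays kept 98 to 133 of them.

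The regions differed in 838 genes, or 4.61% of those tested (limma, Benjamini-Hochberg adjusted p under 0.05 over all genes, two-sided). Of these, 649 were higher in caudal cord (3.57%) and 189 were lower (1.04%). Differences of at least 2-fold were found for 79 genes (0.434%), 74 higher and 5 lower, and 39 of the 79 belong to a list of marker genes used here. The median difference over all genes was −0.01 on the log2 scale. The arrays of the regions did not overlap for 3782 genes (20.8%), 2210 higher (12.1%) and 1572 lower (8.64%) in caudal cord. Of the 838 genes, 326 were called in each of the 7 fits that leave out 1 array, and of the 79 genes 76 were. Single arrays moved the count itself: it was 476, 1899 and 454 without caudal array 278, 279 or 280, and 404, 401 and 471 without rostral array 278, 279 or 280. It was 62 when the spread was shared with 14 clamped arrays, of 24 h and 48 h. Both 24 h arrays numbered 283 had been reported to carry region genes against their labels. Without these arrays in that fit the count was 102. The 10 largest rises were in Hoxd10, Hoxc10, Hoxa10, Scn11a, Hoxd9, Mlip, Pirt, Pmp2, Fxyd2 and Sbspon, which are genes of posterior identity and of the lists for peripheral nerve and sensory ganglia. These lists were chosen with earlier results of these data known, and an earlier look had named Mlip and Sbspon, so their place in a list is no independent result. The 10 largest falls were in Hoxc5, Cilp, Sprr1a, Slc5a7, Coch, Hoxa4, Hoxc4, Matn3, Itgam and Atf3.

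Posterior Hox genes set the caudal samples apart most. Of 14 measured genes of paralogs 9 to 13, 11 were higher in caudal cord and none was lower, with a median log2 difference of 0.91. Hoxd10, which takes part in the identity of lumbar motor neurons, had log2 signals of 9.44, 9.34 and 9.33 on the caudal arrays, against 4.27, 4.14, 4.71 and 4.22 on the rostral arrays. Every caudal value lay far above every rostral one, and the difference was 5.03 ± 0.12 (SE, adjusted p = 2.64e-10), or 32.8-fold. All 4 rostral values were below the lower quartile of their arrays, so that background limits the size of this fold. Hoxc10 had 10.21, 10.16 and 10.48 in caudal samples, against 5.35, 6.08, 5.78 and 6.22 in rostral samples, a 21.5-fold difference (log2 difference 4.43 ± 0.17 SE, adjusted p = 1.27e-08). Hoxa10 had 8.23, 7.94 and 7.87 in caudal samples, against 5.23, 4.92, 4.88 and 4.95 in rostral samples. That difference was 3.02 ± 0.10 (SE, adjusted p = 9.72e-09), again with all 4 rostral values below the lower quartile. The 3 measured group 10 genes thus had the 3 largest differences of the whole comparison.

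The group 9 genes had a high signal in both regions and a graded difference. Hoxd9 had 10.09, 9.91 and 10.39 in caudal samples, against 7.37, 7.47, 7.44 and 7.43 in rostral samples (log2 difference 2.70 ± 0.10 SE, adjusted p = 1.07e-08). Hoxa9 had 11.37, 11.42 and 11.43 in caudal samples, against 9.11, 9.55, 9.32 and 9.53 in rostral samples, a difference of 2.03. Hoxb9 was higher by 1.10 ± 0.21 (SE), with the widest spread of the group: its rostral values ran from 7.49 to 8.66, still below the lowest caudal value of 9.09. Hoxc9 differed least, by 0.79 ± 0.07 (SE). No caudal array overlapped a rostral one for any of the 4 genes.

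Genes of paralogs 11 to 13, which pattern the lumbosacral and tail region, were near background in rostral samples and only slightly above it in caudal samples. Hoxa11 was higher by 1.0, Hoxd11 by 0.81, Hoxc13 by 0.81 and Hoxb13 by 0.78 (adjusted p = 7.39e-05, 0.000381, 0.00065 and 0.00245 with limma). Hoxc13 had 5.64, 5.85 and 6.06 on the caudal arrays and 5.05, 4.89, 5.22 and 5.0 on the rostral arrays, and for Hoxb13 the caudal values were 6.19, 6.00 and 5.63. The rostral values of Hoxd11 and Hoxc13 were below the lower quartile on all 4 arrays. Hoxd12 (0.09), Hoxa13 (−0.10) and Hoxd13 (−0.08) did not pass, and Hoxd12 and Hoxa13 were below the lower quartile on all 7 arrays. Without caudal array 280 the Hoxd13 difference had the opposite sign, at 0.0028.

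Anterior and mid-trunk Hox genes went mostly the other way. Of 12 measured genes of paralogs 4 to 8, 8 were lower in caudal cord and 1 was higher, with a median difference of −0.44. Hoxc5 had 6.00, 6.46 and 5.98 in caudal samples, against 8.28, 8.2, 8.48 and 8.31 in rostral samples. The difference of −2.18 ± 0.11 (SE, adjusted p = 2.22e-07) corresponds to a 4.52-fold higher signal in rostral cord, and no array overlapped. Hoxc5 thereby differed more than its cluster neighbours Hoxc4, with −0.81 ± 0.07 (SE), and Hoxc6, with −0.54 ± 0.09 (SE); the differences between these genes were not tested. Hoxa4 had 5.76, 5.86 and 5.76 in caudal samples and 6.78, 6.52, 6.74 and 6.74 in rostral samples (−0.90 ± 0.08 SE). Hoxa5 (−0.63) was also lower, as was Hoxc8 (−0.50), which had 10.96 to 11.14 in caudal and 11.50 to 11.57 in rostral cord.

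Smaller differences in the same range depended on single arrays. Hoxb5 (−0.38), Hoxb6 (−0.30) and the higher Hoxd8 (0.35) passed with adjusted p = 0.0405, 0.0329 and 0.037. Each lost its call in 6 of the 7 fits that leave out 1 array, with the largest adjusted p at 0.11 for Hoxb5 without caudal array 278, 0.108 for Hoxb6 without rostral array 278 and 0.122 for Hoxd8 without caudal array 280. Of 7 measured genes of paralogs 1 to 3, Hoxa2 was lower (−0.45 ± 0.08 SE, adjusted p = 0.00826) and the other 6 did not pass. Among these, Hoxb2 had −0.26 and Hoxd3 0.22. In the Hoxa, Hoxb and Hoxc clusters every called gene up to paralog 8 was lower in caudal cord and every called gene from paralog 9 on was higher, and in the Hoxd cluster all called genes, from paralog 8 to 11, were higher.

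**Figure D1:**
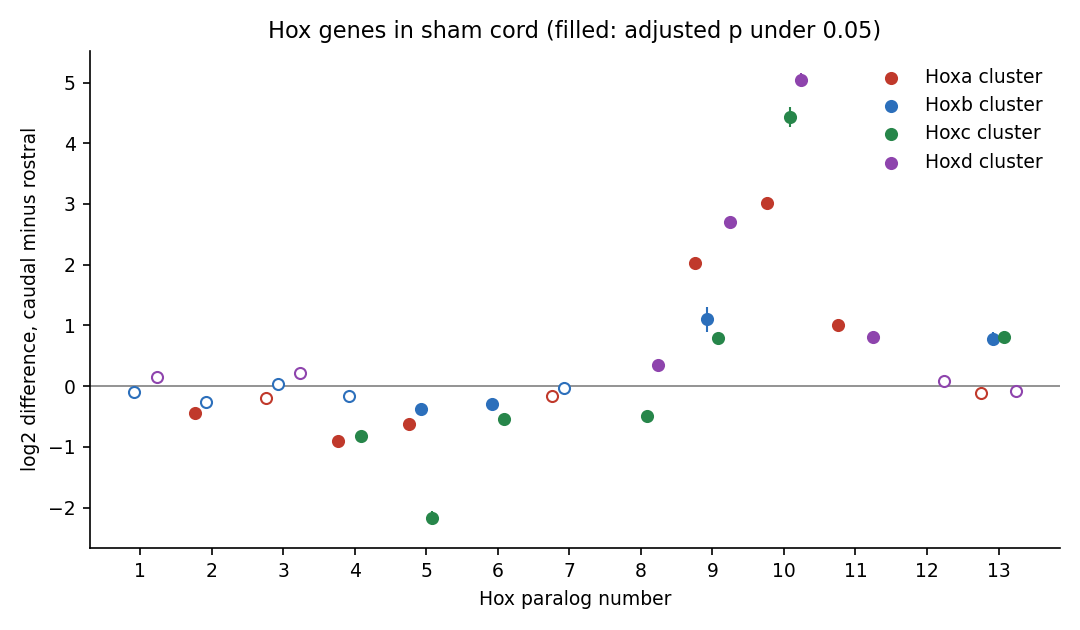
Log2 difference (caudal minus rostral sham cord) of each measured Hox gene against its paralog number; colours mark the 4 clusters, bars are standard errors and filled points have an adjusted p under 0.05. Paralogs 4 to 8 lie mostly below 0, with Hoxc5 lowest at −2.18, and paralogs 9 to 11 lie above 0, with Hoxd10 highest at 5.03.

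Genes whose proteins bind beside Hox proteins or set Hox domains had no call. Of 21 measured genes for Hox cofactors and axial regulators (Meis, Pbx, Cdx, retinoic acid enzymes and others), none passed in either direction with limma (3 higher and 2 lower at an unadjusted p under 0.05), and the median difference was 0.01. The largest was Nr6a1, a regulator of trunk Hox genes, with 0.40 ± 0.11 (SE, adjusted p = 0.056). Genes of hindbrain and aminergic neurons had a median of −0.04 over 14 measured genes. Of these, Egr2 was higher, which is described below as a Schwann cell gene, and Pax7 was lower (−0.29, adjusted p = 0.0277, and 0.0927 without caudal array 278), with caudal values of 4.41 to 4.51 in the background range. Pax7 was also not called without rostral array 278, 279 or 280. Of 9 choroid plexus genes, Sostdc1, an inhibitor of BMP and Wnt signalling, was higher by 1.87 ± 0.15 (SE) and Calml4 by 0.70 ± 0.12 (SE). Ttr, the transthyretin gene that defines choroid plexus, did not pass (−0.24, adjusted p = 0.108).

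Hoxd10 and Hoxd9 are neighbours on chromosome 2, and their window starts lie 5872 bases apart. The 250 bases before their RefSeq start sites (build GRCm38.p6) are shown because these genes hold the largest and the fifth largest rise. Capitals mark CG dinucleotides, the sites of DNA methylation, of which the window of Hoxd10 holds 20 and that of Hoxd9 holds 13, against a median of 6 over 32851 windows of this length. The arrays give no methylation, and the sequences are a description of where these genes begin.
Hoxd10, chr2:74691641-74691890, plus strand: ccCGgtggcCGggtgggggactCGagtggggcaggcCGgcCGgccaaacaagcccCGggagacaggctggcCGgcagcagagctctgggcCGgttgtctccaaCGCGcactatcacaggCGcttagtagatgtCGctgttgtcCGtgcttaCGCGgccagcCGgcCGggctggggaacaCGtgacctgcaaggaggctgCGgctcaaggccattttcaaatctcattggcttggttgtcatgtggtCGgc
Hoxd9, chr2:74697513-74697762, plus strand: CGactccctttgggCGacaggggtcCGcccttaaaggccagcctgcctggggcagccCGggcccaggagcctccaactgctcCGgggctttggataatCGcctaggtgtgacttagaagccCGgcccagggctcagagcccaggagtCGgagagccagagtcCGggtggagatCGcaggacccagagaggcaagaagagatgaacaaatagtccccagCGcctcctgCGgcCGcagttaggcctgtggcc

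Schwann cell genes were higher in caudal cord. Of 24 measured members, 15 were higher and 1 was lower, beside 3.57% and 1.04% of all genes, and their median difference was 1.01 beside −0.01 for all genes. Of these calls 14 held in every fit that leaves out 1 array. The counts and the median include Mlip and Sbspon, which an earlier look at these data had named. Pmp22, a protein of peripheral myelin, had 13.31, 13.20 and 13.18 on the caudal arrays, against 11.65, 11.50, 11.53 and 11.63 on the rostral arrays. The groups lay well apart, with a difference of 1.65 ± 0.07 (SE, adjusted p = 4.34e-08), or 3.15-fold. Pmp2, a lipid-binding protein of peripheral myelin, had 7.77, 7.96 and 7.75 in caudal samples, against 5.01, 5.29, 5.31 and 5.34 in rostral samples (log2 difference 2.59 ± 0.09 SE). Egr2, the transcription factor that drives myelination by Schwann cells, had 8.27, 8.38 and 8.38 in caudal samples, against 5.75, 5.88, 5.90 and 6.42 in rostral samples. Its difference was 2.35 ± 0.13 (SE, adjusted p = 3.34e-07), or 5.11-fold.

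Genes for other parts of the Schwann cell moved with them. Ncmap, a protein of non-compact myelin, was higher by 1.52, the sodium channel gene Scn7a of non-myelinating Schwann cells by 1.86 ± 0.11 (SE), and Ngfr, the low-affinity neurotrophin receptor, by 1.53. Dhh, the hedgehog ligand by which Schwann cells organise the nerve sheath, had 7.77, 7.63 and 7.12 in caudal samples, against 5.80, 5.88, 6.39 and 6.01 in rostral samples (1.48 ± 0.16 SE). Cldn19, a tight junction protein of myelin, was higher by 1.35, Drp2, of the membrane complex around peripheral myelin, by 1.12, and Adgrg6, a receptor needed for Schwann cell myelination, by 0.59. Mlip (2.67), Sbspon (2.51) and Plekha4 (2.20) are in the list from expression in peripheral nerve, and an earlier look at these data had already named Mlip and Sbspon. For Mlip its 1 other probe set, and for Plekha4 1 of 3 others, had the opposite sign.

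Erbb3, the neuregulin receptor of Schwann cells and oligodendrocytes, had 0.24 ± 0.08 (SE, adjusted p = 0.0983). Gjb1, the gap junction protein connexin 32 of both, was lower (−0.29, adjusted p = 0.0489, and 0.139 without caudal array 280). This call was also lost without caudal array 278 or without rostral array 278, 279 or 280. Cdh19 was higher by 0.40, with adjusted p = 0.019 and 0.0819 without caudal array 278, and was not called without rostral array 278 or 279 either. The median of the list depended on the probe sets: it was 0.56 when all probe sets of a gene were averaged and 0.40 among genes of brighter signal.

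A binding motif for EGR proteins was looked for in the 250 bases before the start sites of these genes. The motif searched was GTGGGCG, on both strands, which overlaps no other motif searched here. Of 15 higher Schwann cell genes, 11 had a RefSeq window, and 4 of these (Egr2, Cldn19, Scn7a and Plekha4) held the motif; some genes have several windows and any was counted. Over all genes with a window the share was 7.98%. Among all 16 measured list members with a window, 5 held it, the fifth being Gjb1. The 4 windows are shown with the motif in capitals, as GTGGGCG or as its reverse complement. It begins 31 bases before the start of Egr2, 86 before Cldn19, 125 before Scn7a and 10 before Plekha4. A match describes the letters only.
Egr2, chr10:67535249-67535498, plus strand: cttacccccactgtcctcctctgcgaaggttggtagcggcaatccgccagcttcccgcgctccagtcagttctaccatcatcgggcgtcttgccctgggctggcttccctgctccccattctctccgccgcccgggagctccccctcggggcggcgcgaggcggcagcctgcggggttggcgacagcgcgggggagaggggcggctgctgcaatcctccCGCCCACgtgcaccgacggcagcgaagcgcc
Cldn19, chr4:119255191-119255440, plus strand: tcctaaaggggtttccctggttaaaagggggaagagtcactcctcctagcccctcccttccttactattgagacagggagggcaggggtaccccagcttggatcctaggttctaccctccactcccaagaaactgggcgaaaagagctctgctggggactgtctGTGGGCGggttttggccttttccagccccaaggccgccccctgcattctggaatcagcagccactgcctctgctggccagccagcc
Scn7a, chr2:66784911-66785160, minus strand: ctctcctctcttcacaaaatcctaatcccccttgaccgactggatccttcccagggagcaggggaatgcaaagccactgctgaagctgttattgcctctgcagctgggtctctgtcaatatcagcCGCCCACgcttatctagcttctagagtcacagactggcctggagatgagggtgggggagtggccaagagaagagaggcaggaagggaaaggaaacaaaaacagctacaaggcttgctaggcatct
Plekha4, chr7:45529349-45529598, plus strand: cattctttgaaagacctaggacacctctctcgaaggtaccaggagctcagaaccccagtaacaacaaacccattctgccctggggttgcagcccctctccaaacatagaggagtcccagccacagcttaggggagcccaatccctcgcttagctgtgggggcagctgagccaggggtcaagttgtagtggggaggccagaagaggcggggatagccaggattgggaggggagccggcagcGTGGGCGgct

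Sensory ganglion genes were higher in caudal cord as a second large group. Of 38 measured members, 20 were higher and none was lower (2 at an unadjusted p under 0.05, limma), beside 3.57% and 1.04% of all genes, with a median log2 difference of 0.38. The number higher was 15 without caudal array 278 and 23 without caudal array 280. Scn11a, which encodes a voltage-gated sodium channel of nociceptors, had 8.28, 8.55 and 7.76 on the caudal arrays, against 5.36, 5.34, 5.48 and 5.51 on the rostral arrays. The difference was 2.78 ± 0.14 (SE, adjusted p = 2.22e-07), or 6.86-fold. Pirt, a regulator of the heat receptor in the same neurons, had 8.39, 8.39 and 7.34 in caudal samples, against 5.42, 5.54, 5.36 and 5.30 in rostral samples (2.63 ± 0.20 SE). Fxyd2, a subunit that modulates the sodium pump, had 9.31, 9.18 and 8.88 in caudal samples, against 6.79, 6.23, 6.62 and 6.76 in rostral samples, and 1 of its 3 other probe sets had the opposite sign. For all 3 genes caudal array 280 was the lowest caudal array and still above every rostral one.

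Other genes of the ganglion covered its transcription factors, channels and transmitter enzymes. Avil, the actin regulator advillin that marks sensory neurons, had 7.91, 8.32 and 7.16 in caudal samples, against 6.25, 5.76, 6.00 and 5.69 in rostral samples (1.87 ± 0.22 SE, adjusted p = 0.000295). The sensory transcription factors Isl1 and Pou4f1 were higher by 0.92 ± 0.11 and 0.56 ± 0.08 (SE), and Isl1 belongs to motor neurons as well. Scn9a, another sodium channel of pain fibres, was higher by 1.18, Th, tyrosine hydroxylase, which some touch neurons and all catecholamine neurons use, by 1.16, Asic3, an acid-sensing channel, by 0.69 and Trpa1, an irritant receptor, by 0.57. Each of these kept its call without any 1 array. Prph, peripherin of peripheral axons, was higher by 0.61, but 2 of its 3 other probe sets had the opposite sign.

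Scn10a, a sodium channel gene of nociceptors, had 5.6, 5.21 and 4.66 on the caudal arrays, against 4.56, 4.27, 4.41 and 4.33 on the rostral arrays, with caudal array 280 close to the rostral range. It passed (0.76 ± 0.17 SE, adjusted p = 0.0243) but not without rostral array 279 (0.0745), nor without caudal array 278 or rostral array 278 or 280. The heat receptor gene Trpv1 (0.65) and the ATP receptor gene P2rx3 (0.45) also passed, and lost the call without rostral array 280 (adjusted p = 0.092) and without rostral array 278 (0.0983). Neither was called without caudal array 278 or without any 1 of rostral arrays 278 to 280, nor was Trpv1 without rostral array 277. Calcb, a peptide gene of pain neurons that motor neurons express too, did not pass (0.37 ± 0.10 SE, adjusted p = 0.0535). Of 9 measured genes for satellite glia, the cells around ganglion neurons, 3 were higher: Fbln5 by 0.62 ± 0.07 (SE), Cdh19, also in the Schwann list, and Fbln2 by 0.41, which was not called without caudal array 278 (adjusted p = 0.0921). Fbln2 was also not called without caudal array 280 or without rostral array 278 or 279. The 1 other probe set of Fbln5 had the opposite sign.

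**Figure D2:**
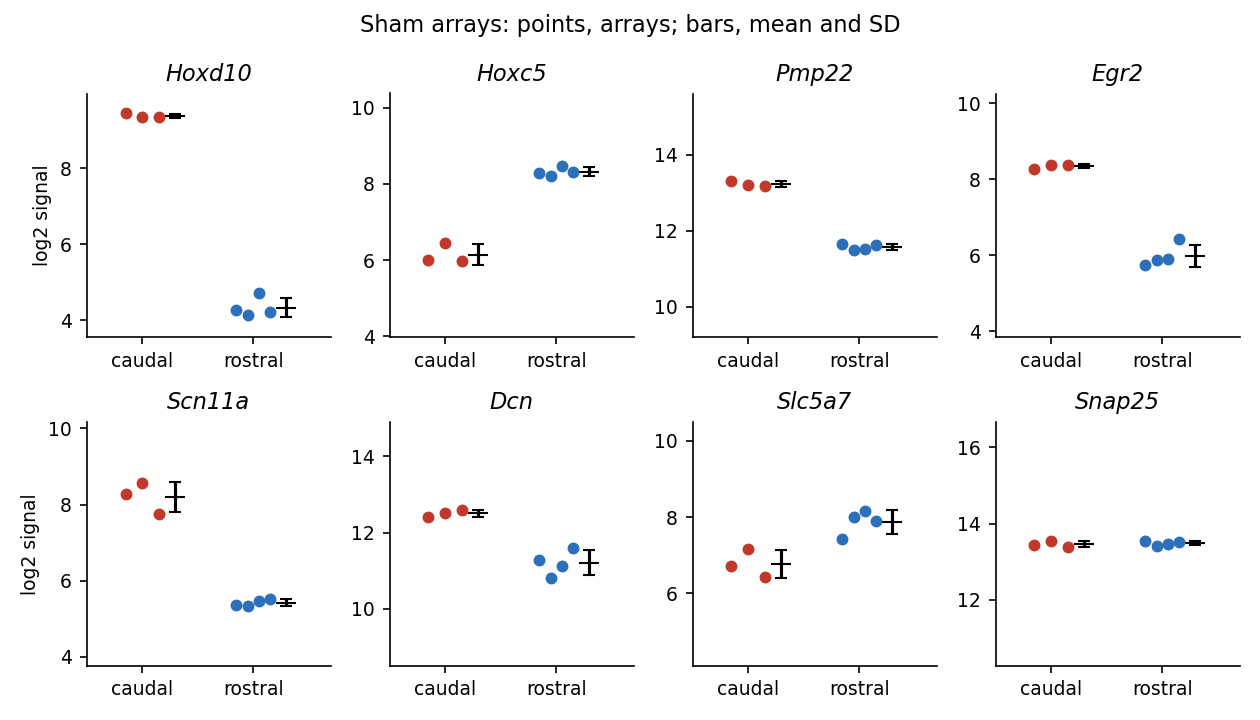
Log2 signals of 8 genes on each sham array, caudal left of rostral; black bars are the mean and SD. Hoxd10, Pmp22, Egr2, Scn11a and Dcn are higher on every caudal array, Hoxc5 and Slc5a7 are lower on every caudal array, and Snap25 overlaps.

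Nerve sheath and meningeal genes were higher in part. Of 13 measured genes of perineurium and endoneurium, the sheaths within a nerve, 4 were higher, none was lower and the median was 0.29. Cldn1, the tight junction protein of perineurial cells, was higher by 1.07 ± 0.08 (SE, adjusted p = 4.87e-06), although 2 of its 3 other probe sets had the opposite sign. Ccl11, a chemokine of fibroblasts, was higher by 1.02 ± 0.10 (SE) and Abca9 by 0.60, the last again with its other probe set of opposite sign. Ntn4 passed with 0.29 (adjusted p = 0.0442) and not without rostral array 278 (0.13). Of the fits that leave out 1 array, it was called in that without caudal array 279 alone. Without caudal array 280 the list had 3 higher.

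Among 47 measured genes of meninges and fibroblasts, 12 were higher and none was lower (5 at an unadjusted p under 0.05, limma), beside 3.57% and 1.04% of all genes, with a median of 0.12. Without caudal array 280, 9 were higher, and without caudal array 278, 15. The higher ones were led by Cdh1, the adhesion protein E-cadherin of the arachnoid barrier, with 7.94, 8.10 and 8.41 in caudal samples, against 6.48, 6.55, 6.47 and 6.73 in rostral samples. The difference was 1.59 ± 0.11 (SE, adjusted p = 2.2e-06), or 3.01-fold. Ogn, a small matrix proteoglycan, had 10.79, 10.98 and 10.93 in caudal samples, against 9.29, 9.15, 9.27 and 9.79 in rostral samples (1.53 ± 0.13 SE). Dcn, the proteoglycan decorin, had 12.41, 12.52 and 12.59 in caudal samples, against 11.29, 10.80, 11.13 and 11.59 in rostral samples (1.30 ± 0.14 SE). For these genes rostral array 280 was the highest rostral array and remained below the caudal ones.

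Fibrillar collagen genes followed with smaller differences. Col1a1 was higher by 0.92 ± 0.15 (SE, adjusted p = 0.00422) and Col1a2 by 0.75 ± 0.13 (SE, adjusted p = 0.00775). Col3a1 had 10.25, 10.72 and 11.16 in caudal samples, against 9.66, 9.07, 9.49 and 10.07 in rostral samples, and was not called without caudal array 280 (adjusted p = 0.0134, and 0.0583 without it). Nor was Col3a1 called without rostral array 279. The matrix gene Lum was higher by 0.80 and Ccn3 by 1.09. Of the solute carriers in the list only Slc22a2, an organic cation transporter, passed, higher by 0.39 ± 0.07 (SE, adjusted p = 0.00632), while Slc13a4, a sulfate transporter, had −0.17 ± 0.14 (SE, and 0.0332 without caudal array 278). The growth factor gene Igf2 did not pass (−0.16 ± 0.12 SE). Foxc2, a transcription factor of the meninges, passed at 0.58 (adjusted p = 0.049) and not without caudal array 280 (0.167). This call was also lost without caudal array 279 or without rostral array 277, 278 or 279.

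Of 14 genes of mural and smooth muscle cells, 4 passed (Pdgfrb 0.45, Tagln 0.41, Notch3 0.40 and Rgs5 0.30), and none of the 14 was called without caudal array 280 (limma adjusted p from 0.058 to 0.124 for these 4) or without rostral array 278, 279 or 280. The median was 0.01. For Rgs5 2 of 3 other probe sets had the opposite sign. None of 15 endothelial genes passed with limma (2 higher and 2 lower at an unadjusted p under 0.05), with a median of 0.05 and differences between −0.31 and 0.26.

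**Figure D3:**
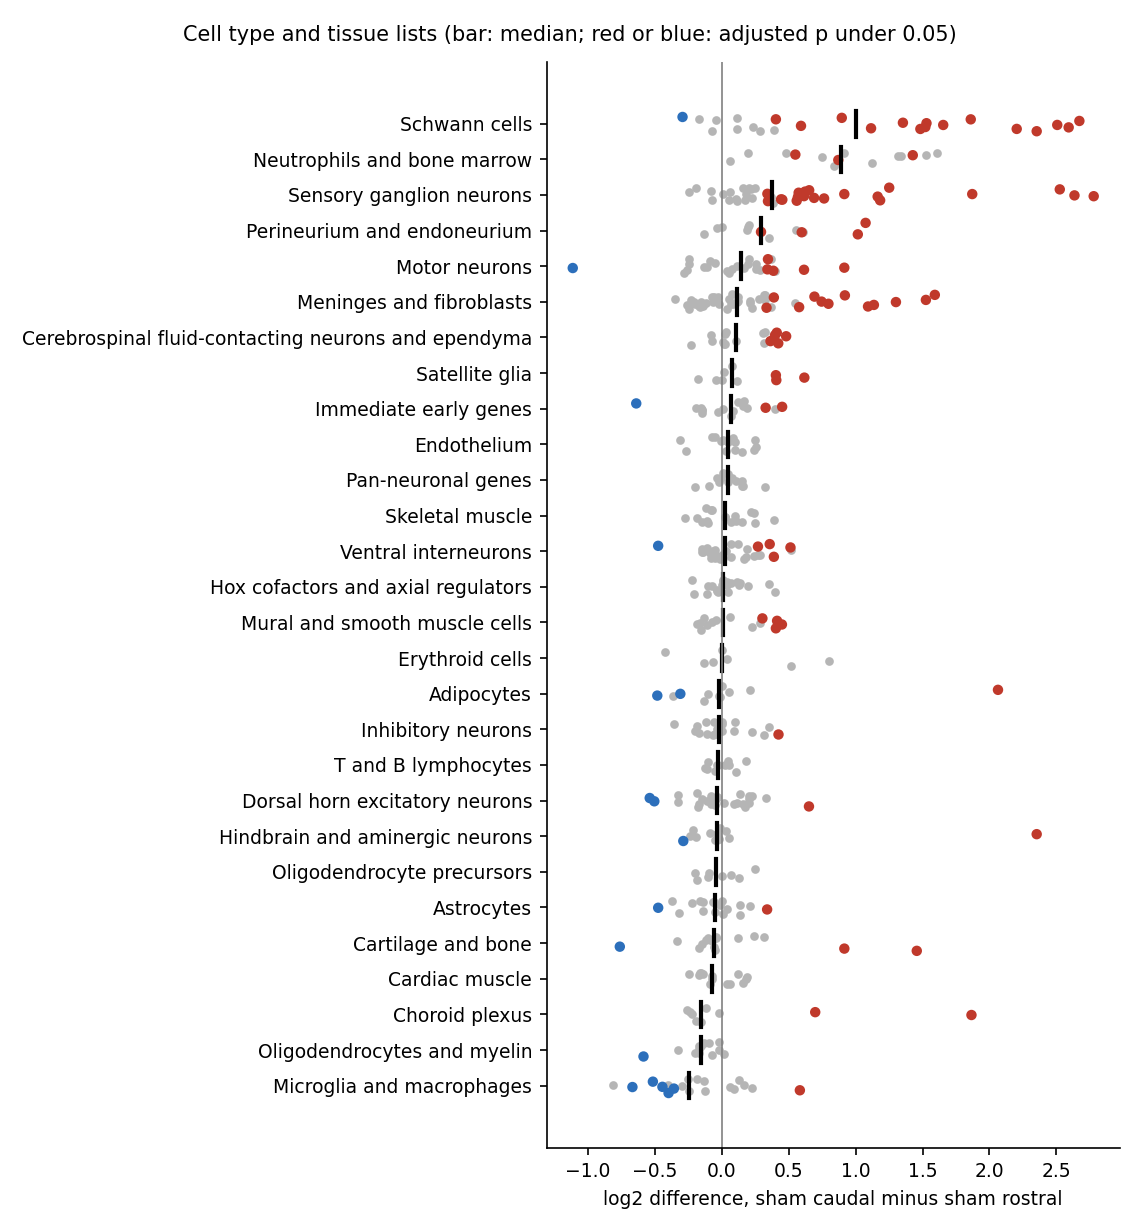
Log2 difference (caudal minus rostral sham cord) of every measured member of each marker list except the Hox genes; black bars are list medians, red and blue points are genes with an adjusted p under 0.05, higher or lower in caudal cord. The Schwann cell median lies at 1.01 and the sensory ganglion median at 0.38, while the lists of central neurons lie near 0.

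Lists of the cord's own neurons differed in their share of called genes, to be read beside 3.57% higher and 1.04% lower of all genes. The highest counts of higher members were 5 of 17 for neurons that contact the cerebrospinal fluid with ependyma, and 5 of 26 for motor neurons. Some of these calls depended on single arrays, as given below. None of 14 pan-neuronal genes passed with limma (2 higher and 1 lower at an unadjusted p under 0.05), their median was 0.05 and the largest difference was 0.32 ± 0.09 (SE, adjusted p = 0.0625) for Tubb3, a tubulin of neurons. The mean signal over this list was 12.42 to 12.51 on caudal and 12.35 to 12.48 on rostral arrays.

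In motor neurons the choline transporter stood out against the list. Slc5a7, which takes up choline for acetylcholine synthesis, had 6.71, 7.15 and 6.43 on the caudal arrays, against 7.41, 8.0, 8.17 and 7.91 on the rostral arrays. It was lower by 1.11 on the log2 scale, with every caudal value under every rostral one (difference −1.11 ± 0.18 SE, adjusted p = 0.00377), or 2.16-fold higher in rostral cord. The other cholinergic genes had −0.14 ± 0.08 (SE) for Chat, which makes acetylcholine, and −0.24 ± 0.08 (SE) for Slc18a3, which loads it into vesicles, and neither passed (adjusted p = 0.286 and 0.0934). Chat had a low signal, 5.70 to 5.90 on caudal and 5.80 to 5.98 on rostral arrays. The lower quartiles of these arrays lay between 5.17 and 5.24, so the signal of Chat limits what it can show. Of 26 measured motor neuron genes, 5 were higher, and 4 of them (Isl1, Isl2, Prph and Ret) are also in the sensory ganglion list. The remaining one, Fbn2, lost its call without caudal array 280 (0.39, adjusted p = 0.0396, and 0.128 without it). Of the fits that leave out 1 array, only that without caudal array 279 called Fbn2. Isl2 (0.34) and Ret (0.35) were not called without rostral array 278 (0.0687) and without caudal array 278 (0.0999). Isl2 was also not called without caudal array 278 or rostral array 279, nor was Ret without rostral array 277, 279 or 280. Foxp1, of limb-innervating motor columns, had 0.40 ± 0.10 (SE, adjusted p = 0.0539). The number higher in this list was 2 without caudal array 278, 9 without caudal array 279 and 3 without any 1 of the rostral arrays.

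Dorsal horn genes had 1 higher and 2 lower members among 28 for excitatory neurons, with a median of −0.03. Maf, a transcription factor of deep dorsal horn and touch neurons, had 10.15, 10.11 and 9.90 in caudal samples, against 9.34, 9.35, 9.35 and 9.56 in rostral samples (0.65 ± 0.08 SE, adjusted p = 0.000724). Nmu, the neuropeptide neuromedin U, was lower, with 8.51, 8.64 and 8.46 in caudal samples, against 9.28, 8.96, 9.03 and 9.03 in rostral samples (−0.54 ± 0.09 SE, adjusted p = 0.00352). Nts, neurotensin, had −0.50 and was not called without rostral array 279 (adjusted p = 0.0328, and 0.106 without it). This call was also lost without caudal array 278 or 280 and without rostral array 278 or 280. Of 21 genes of inhibitory neurons, only Npy2r, a neuropeptide Y receptor, passed (0.42, adjusted p = 0.0178, and 0.0629 without caudal array 280), and Slc6a5, the glycine transporter that defines glycinergic neurons, had −0.17 ± 0.10 (SE). Npy2r was also not called without caudal array 278 or rostral array 279.

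Ventral interneuron genes had 4 higher and 1 lower of 30, and 1 higher and 1 lower without caudal array 280. Onecut2, a transcription factor of early-born neurons, was higher by 0.51 ± 0.09 (SE, adjusted p = 0.00816), and Nkx6-2, a ventral patterning factor that oligodendrocytes also use, was lower (−0.47 ± 0.09 SE, adjusted p = 0.00775). Foxp2 (0.39), Dmrt3 (0.36) and Wt1 (0.27) passed with every array, and none of them did without caudal array 280 (adjusted p = 0.0795, 0.0558 and 0.115). None of them passed without rostral array 279 either, where 1 gene of the list was higher, and 2 were higher without caudal array 278 or without rostral array 278 or 280. Wt1 was called in no fit that leaves out 1 array. Of 17 genes of neurons that contact the cerebrospinal fluid and of ependyma, 5 were higher. Pkd2l1, the channel that defines these neurons, had 8.04, 7.90 and 7.94 in caudal samples, against 7.62, 7.46, 7.57 and 7.59 in rostral samples (0.40 ± 0.07 SE, adjusted p = 0.00685). Rarres2, the secreted protein chemerin, was higher by 0.48 ± 0.09 (SE), with 1 of 2 other probe sets of opposite sign. The cilia genes Tmem212, Cfap54 and Ccdc153 passed at 0.36 to 0.42 and none of them was called without caudal array 280 (adjusted p = 0.129, 0.142 and 0.0914), where 2 of the list were higher, as without rostral array 280; without caudal array 278 or rostral array 277 it was 3.

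Markers of other cells and tissues in the same samples stand beside these results. Among 14 genes of neutrophils and bone marrow all differences were positive, the median was 0.89 and 3 passed (Hp, S100a8 and Mmp8). Their mean signal was 7.95, 7.02 and 8.63 on caudal arrays 278, 279 and 280 and 6.79 to 7.12 on the rostral arrays, so that caudal array 279 lay in the rostral range. S100a8, a neutrophil alarmin, had 11.30, 9.85 and 11.82 in caudal samples, against 9.68, 10.01, 9.55 and 9.02 in rostral samples. Without caudal array 280 the median was 0.50 and 1 gene was called, as was 1 without rostral array 278. Without caudal array 279, 13 of the 14 were called, and none without caudal array 278 or without rostral array 277, 279 or 280 (limma). The Schwann cell list averaged 8.94, 8.87 and 8.82 on caudal arrays, against 7.74 to 7.91 on rostral arrays. Any relation of this list to the neutrophil genes was not tested. The sensory ganglion list averaged 7.21, 7.25 and 6.98 on caudal arrays, against 6.50 to 6.60 on rostral arrays. The meningeal list averaged 8.74, 9.07 and 9.09 on caudal arrays, against 8.59 to 8.87 on rostral arrays, and overlapped.

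**Figure D4:**
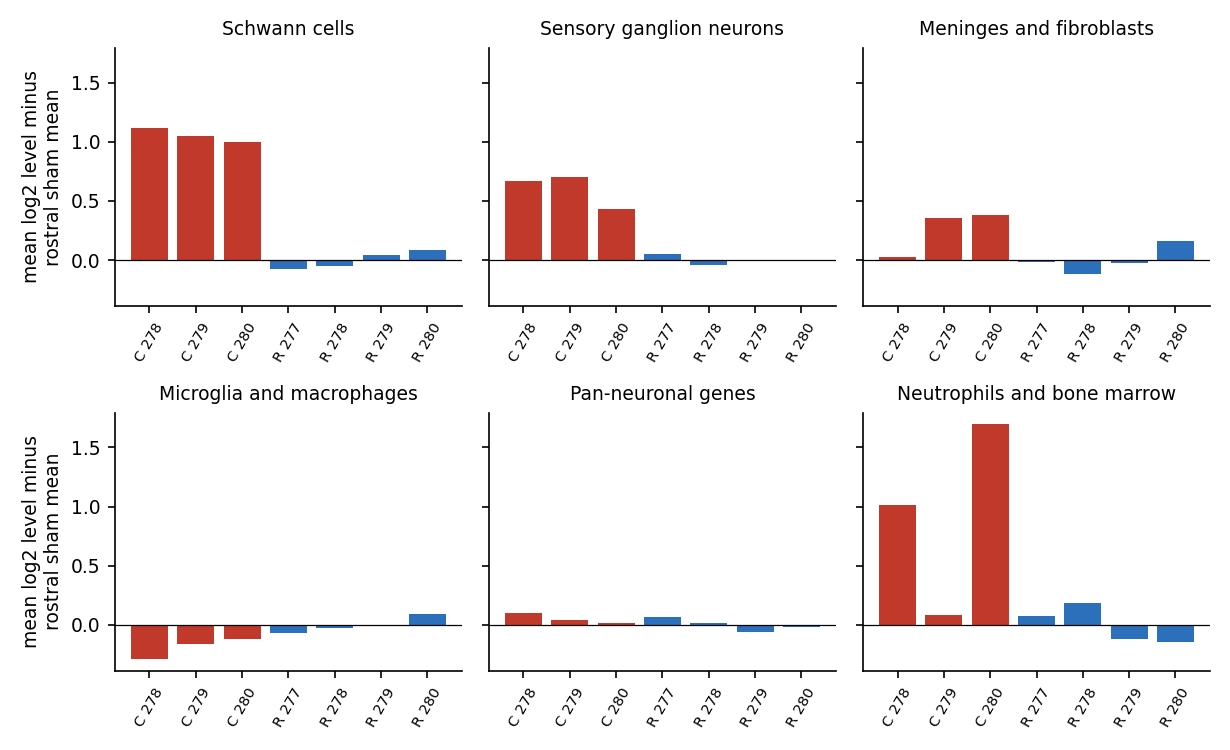
Mean log2 level of 6 marker lists on each sham array, relative to the mean of the 4 rostral arrays; C marks caudal (red) and R rostral (blue) arrays with their numbers. Schwann cell and sensory ganglion genes are high on all 3 caudal arrays, and neutrophil genes only on caudal arrays 278 and 280.

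Resident immune genes were lower in part, and glial lists had at most 1 call in each direction. Of 19 microglia and macrophage genes, 5 were lower (C1qb, Itgam, Siglech, C1qa and Aif1) and 1 was higher, beside 1.04% and 3.57% of all genes. Their median was −0.25, with 11 lower and 1 higher at an unadjusted p under 0.05 (limma). The mean signal of this list was 7.96 to 8.13 on caudal and 8.18 to 8.33 on rostral arrays. Itgam, the integrin CD11b, had 6.18, 6.47 and 5.96 in caudal samples, against 6.79, 6.81, 6.9 and 6.99 in rostral samples (−0.67 ± 0.11 SE), and C1qb, of the complement C1 complex, was lower (−0.51 ± 0.08 SE). Siglech and C1qa lost the call without caudal array 278 (adjusted p = 0.0612 and 0.081), and Aif1 without rostral array 278 (0.11). C1qa was also not called without rostral array 278 or 279. Of the fits that leave out 1 array, Aif1 was called in that without caudal array 280 alone. The higher one was Cd74, of antigen presentation, by 0.58 ± 0.08 (SE). P2ry12, a defining microglia receptor, had −0.81 ± 0.23 (SE, adjusted p = 0.0625), with 7.28 on caudal array 280. Of 18 astrocyte genes, 1 was higher and 1 lower, with a median of −0.05. Gfap, the astrocyte filament gene, was lower (−0.47 ± 0.08 SE, adjusted p = 0.0057), with 11.88, 12.07 and 11.85 in caudal samples, against 12.29, 12.51, 12.35 and 12.47 in rostral samples. Vim, the filament protein vimentin, which other cells express too, was higher by 0.34 ± 0.08 (SE, adjusted p = 0.0314), and of the fits that leave out 1 array it was called in that without caudal array 280 alone. Gpr37, an oligodendrocyte receptor, was lower (−0.59 ± 0.12 SE) and was the only one of 13 oligodendrocyte genes that passed. The median of this list was −0.16, with 0 higher and 5 lower at an unadjusted p under 0.05 (limma). Its mean signal was 11.96 to 12.06 on caudal and 12.16 to 12.21 on rostral arrays. None of 8 precursor genes passed with limma (1 higher and 1 lower at an unadjusted p under 0.05).

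Genes of erythroid cells (7), lymphocytes (11), skeletal muscle (18) and cardiac muscle (14) had no member past the threshold with limma in the sham comparison, with list medians between −0.07 and 0.03. At an unadjusted p under 0.05 there were 1 higher and 1 lower erythroid gene, 0 lymphocyte genes, 1 higher and 2 lower skeletal muscle genes and 3 lower cardiac genes. Without caudal array 279, 3 skeletal muscle genes, 2 erythroid genes and 1 gene each of the lymphocyte, endothelial, pan-neuronal and precursor lists were higher. Of 11 adipocyte genes, 1 was higher and 2 were lower, with a median of −0.02. Slc36a2, an amino acid transporter, was higher by 2.06 ± 0.09 (SE, adjusted p = 5.75e-08), while Adipoq, which defines adipocytes, had 4.0 to 4.62 on all 7 arrays, in the background range. Cidea, of lipid droplets (−0.48 ± 0.11 SE, adjusted p = 0.0297), and Lpl, the lipoprotein lipase (−0.31 ± 0.07 SE, adjusted p = 0.0383), were lower, and neither was called without caudal array 278 or without rostral array 278 or 279. Among 16 cartilage and bone genes, the matrix genes Comp (1.46 ± 0.14 SE) and Cnmd (0.92 ± 0.11 SE) were higher and Matn3 was lower (−0.76 ± 0.11 SE). Of 17 immediate early genes, Nr4a1 was higher by 0.45 and Btg2 by 0.33, and Atf3, a transcription factor induced by stress and axon injury, was lower (−0.64 ± 0.10 SE, adjusted p = 0.00438). Btg2 was not called without caudal array 280 (adjusted p = 0.0898), nor without caudal array 278 or rostral array 278, 279 or 280.

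Outside the Hox genes the largest falls were those of Cilp, Sprr1a, Slc5a7 and Coch. Cilp, a cartilage matrix protein, had 5.61, 6.26 and 6.33 on the caudal arrays, against 7.77, 7.12, 7.49 and 7.73 on the rostral arrays (−1.46 ± 0.18 SE, adjusted p = 0.000464), or 2.75-fold higher in rostral cord. Sprr1a, a cornified envelope protein that injured sensory neurons induce, had 5.48, 5.47 and 5.39 in caudal samples, against 6.75, 6.8, 6.79 and 7.21 in rostral samples (−1.44 ± 0.10 SE, adjusted p = 4.86e-06). Coch, a secreted matrix protein of the inner ear, had 5.84, 6.39 and 6.19 in caudal samples, against 7.22, 6.98, 6.98 and 7.43 in rostral samples (−1.01 ± 0.13 SE). In each of the 3 genes the highest caudal value stayed below the lowest rostral value.

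The same regional difference was then measured in the arrays taken 48 h after clamping, which share no sample with the sham arrays. There 91 genes were called (0.5% of those tested), 73 higher (0.401%) and 18 lower (0.0989%) in caudal cord. Of the 74 genes that were higher by at least 2-fold in sham caudal cord, all 74 had the same sign at 48 h, 20 were called there and 58 had a smaller difference. Of the 5 lower ones, all 5 had the same sign and 2 were called. Over all 649 higher genes 68.9% kept the sign, beside 52.5% of all genes with a positive difference at 48 h. For the 189 lower genes it was 56.6%, beside 47.5% of all genes with a negative one. Caudal array 271 stood apart at 48 h in the SD of its signals (2.05, against 2.22 to 2.24 on the other caudal 48 h arrays) and caudal array 274 in its Gapdh control (−1.05); without both, 964 genes were called. Cardiac muscle genes averaged 6.49 to 7.90 on caudal and 8.66 to 10.09 on rostral 48 h arrays, with 5 of 14 lower in caudal samples, against 5.89 to 5.98 on all 7 sham arrays; their part in the 48 h values was not tested.

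Of the 12 Hox genes higher in sham caudal cord 7 were called at 48 h, and of the 9 lower ones 2, all in the same direction. Hoxd10 had 7.98, 9.23, 8.64 and 8.71 on caudal arrays 271 to 274, against 3.98, 4.27, 4.15 and 4.18 on rostral arrays 271 to 274 (4.49 ± 0.23 SE, adjusted p = 0.000224). Hoxc10 differed by 4.11, Hoxa10 by 3.10, Hoxd9 by 2.58, Hoxa9 by 2.12 and Hoxc5 by −2.01, each called at 48 h. Hoxb9 (0.72, adjusted p = 0.193), Hoxb13 (0.34, adjusted p = 0.425) and Hoxd8 (0.06, adjusted p = 0.881) were not called there. No Hox gene passed the interaction test, of the difference at 48 h against that in sham, with limma (adjusted p = 0.567 for Hoxd10). Schwann cell genes had a median of 0.98 at 48 h, with 7 of 24 called higher. Sbspon differed by 3.04, Egr2 by 2.51 and Pmp2 by 2.17, all called, while Pmp22 (1.29 ± 0.31 SE, adjusted p = 0.135) was not, with 11.73 on caudal array 271 and 13.02 to 13.27 on the other caudal arrays.

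No sensory ganglion gene of 38 was called at 48 h with limma (7 higher at an unadjusted p under 0.05), and their median was 0.15 there. Scn11a had 6.12, 7.99, 7.56 and 6.34 on the caudal arrays, against 5.71, 6.8, 5.70 and 5.46 on the rostral arrays, and now overlapped (1.08 ± 0.46 SE, adjusted p = 0.422). The change of the regional difference from sham, −1.69 ± 0.55 (SE), did not pass (adjusted p = 0.374), so the regional difference was not shown to differ between the conditions. Rostral array 272 was the highest rostral array for Scn11a, Pirt (6.63) and Fxyd2 (8.0). Meningeal genes had a median of 0.11 with 1 of 47 called.

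The regional difference itself changed between sham and 48 h for 65 genes (0.357%), among them 14 that were called in sham. The change was positive for 49 genes and negative for 16. The cardiac muscle list held 5 of the 65, the skeletal muscle list 1 and the immediate early list 5. Aqp1, a water channel gene, had 6.82, 7.14, 6.83 and 6.30 in caudal samples at 48 h, against 6.10, 7.39, 7.14 and 6.05 in rostral samples at 48 h. In sham it had 7.61, 7.62 and 7.6 in caudal samples, against 5.44, 5.22, 5.15 and 4.88 in rostral samples. Its regional difference was 0.10 at 48 h and 2.44 in sham, a change of −2.33 ± 0.40 (SE, adjusted p = 0.0171). The 10 of these 14 genes that were lower in sham caudal cord all had a positive difference at 48 h. Among them, Atf3 had 2.23 at 48 h and −0.64 in sham (change 2.87 ± 0.46 SE, adjusted p = 0.0137). The microglial receptor gene Fcrls had 1.66 at 48 h and −0.35 in sham, Tlr2, a receptor for bacterial products, had 2.65 and −0.31, and Cxcl10, a chemokine induced by interferon, had 4.37 and −0.32. The count of 65 was between 26 and 325 when 1 array was left out, and was lowest without sham caudal array 278.

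**Figure D5:**
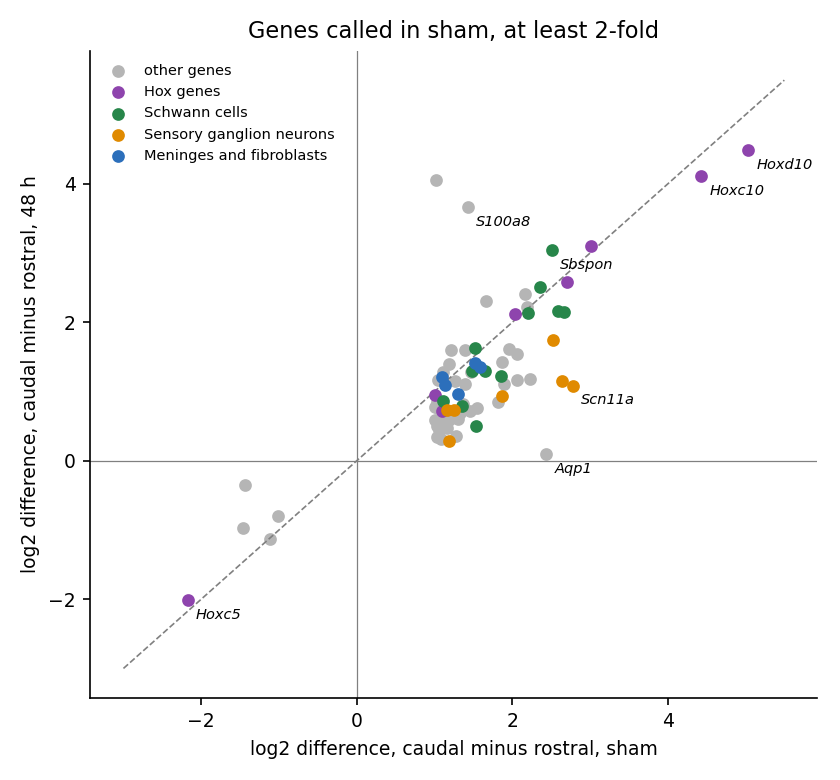
Log2 difference between caudal and rostral cord in sham (x axis) and 48 h after clamping (y axis) for the 79 genes called at least 2-fold in sham; colours mark marker lists and the dashed line is equality. All points lie in the quadrants of equal sign, Hox genes lie near the line, and Aqp1 lies at 0.10 on the 48 h axis and 2.44 on the sham axis.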

How the data were processed

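The deposited values are log2 probe set signals of Affymetrix Mouse430_2 arrays computed by the authors with RMA, a method named in the submitters' processing notes; its version and the genome build are not given in the sources used here. RMA sets all arrays to nearly 1 distribution, so values are relative within an array, and depth does not apply: the number of arrays limits the precision. Samples were grouped by the region, treatment and time in their labels. Rostral array 276, whose labels give 24 h and 48 h, was in no group.

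The platform annotation gives 1 gene symbol to 34945 of 45101 probe sets, several to 932 and none to 9160, and 64 are controls. Each of 18193 genes was represented by the probe set with the highest mean over the 7 sham arrays. Other probe sets of opposite sign are named beside some genes but not all. The sham arrays alone were fitted with limma 3.58.1 under R 4.3.3, by lmFit followed by eBayes, which left 12.0 degrees of freedom including those of the prior. A gene was called where its two-sided p, adjusted by Benjamini-Hochberg over all genes, was under 0.05. The 48 h arrays were fitted alone in the same way, and the change of the regional difference was an interaction contrast over all 15 arrays. The fit was tested on simulated data. The 24 h arrays entered only the alternative fits in which 21 arrays share 1 spread.

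There were 29 marker lists of 519 measured genes. The comparison and lists were chosen with earlier results of these data known, so lists are described by counts and medians, without a set test. Genes named are the 10 largest rises and 10 largest falls without overlap between arrays, all Hox genes, up to 4 members of smallest p in each list with further called members, and tissue markers; clone, RIKEN and predicted names were counted only. Aqp1 and the genes named for the interaction test alone were chosen after their values were seen, as were those in the closing section that are in no list. Promoter windows are RefSeq's (GRCm38.p6). Alternatives covered the probe set rule, a filter on dim genes, normalization, eBayes settings, array weights, the arrays in the fit, the title number as a block and each array left out. Arrays of both regions share title numbers, but the labels do not say that a number is an animal, so the numbers were not taken as pairs. The correlation of deviations within numbers was 0.28, 0.22 and 0.09 for 278, 279 and 280. Between different numbers it ran from −0.27 to 0.24, and these values do not settle whether a number is an animal. No sham arrays held identical values. Some members of the lists are not reported here.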

Additional observations from a re-analysis of the deposited data

Results flagged for a closer look

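In the group of 4 sham rostral arrays, 1 array lay apart from the other 3, relative to the range of all 4, for 6 of 166 genes checked. That is no more than chance alone flags, about 1 in 20 groups, and some of the gaps are small. Pmp2 (5.01) and Sbspon (5.06) were low on rostral array 277, where the others had 5.29 to 5.34 and 5.57 to 5.64. Maf (9.56) and Sprr1a (7.21) were high on rostral array 280, against 9.34 to 9.35 and 6.75 to 6.8 on the others. Hoxb4 was low on rostral array 279 (7.57, others 7.67 to 7.68), and Gpr37 was high on rostral array 278 (11.42, others 11.30 to 11.32).

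The difference between caudal and rostral cord at 48 h, less that in sham, passed the interaction test (limma, adjusted p under 0.05) for 13 named genes. The change was 4.69 for Cxcl10, 3.11 for Gpr84, 2.96 for Tlr2, 2.87 for Atf3, 2.26 for Cybb, 2.10 for Fcgr1, 2.01 for Fcrls, 1.94 for Ly86, 1.39 for C1qc, 1.20 for Btg2 and 1.09 for C1qa. It was negative for Aqp1 (−2.33) and Mlf1 (−1.04).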

How the results depend on the processing

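The 838 calls became 1830 (1191 higher and 639 lower) with array weights, 62 (61 and 1) with 21 arrays sharing 1 spread, 102 (96 and 6) without both arrays numbered 283 in that fit, and 401 to 1899 (336 to 1254 and 64 to 645) without 1 sham array. With the title number as a replicate block they were 1556 (1015 and 541) with a fixed and 1952 (1292 and 660) with a random block; 2 of 3 caudal arrays correlated best with their own number, a hint from the data only. The 79 calls of at least 2-fold became 24 among brighter genes, 44 with 21 arrays and 121 with every probe set as a feature. At 48 h the 91 calls became 1724 with array weights, 332 with the fixed replicate block, 964 without caudal arrays 271 and 274 (chosen after the data were seen) and 34 to 348 without 1 array. The 65 interaction calls became 1169, 137 with the block, and 26 to 325 without 1 array. The Schwann cell median of 1.01 was 0.56 with probe sets averaged and 0.40 among brighter genes, and the sensory ganglion median was 0.32 to 0.46 without 1 array. Of 140 named called genes, 34 were called with 21 arrays and 51 with these less both numbered 283. Without 1 array 98 to 133 were called. With probe sets averaged 117 were called, and Dmrt3, Ntn4 and Pax7 were among those lost. The sign turned for uncalled Hoxd13 (0.0028 with array weights, −0.1517 to 0.0028 without 1 array), Slc13a4 (−0.3043 to 0.0332 without 1 array), Snap25 (0.0036 with the fixed block, −0.0607 to 0.0166 without 1 array) and Mbp (−0.0019 with probe sets averaged), and for called Rgs5 (−0.0193 with probe sets averaged). The cause of these shifts was not tested. Signal over background limits the size of the differences of Hoxd10, Hoxa10, Hoxd11, Hoxc13, Cldn19, Asic3, Scn10a, Trpv1, Ccl11 and Cnmd, whose rostral values lay below the lower quartile on all 4 arrays.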

Other observations

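Several further genes with large differences lie in none of the marker lists and were chosen after their values were seen. Acpp, an acid phosphatase of pain-sensing neurons, had 7.50, 7.82 and 6.72 on sham caudal arrays 278, 279 and 280, against 4.99, 5.05, 5.29 and 5.14 on sham rostral arrays 277 to 280, a log2 difference of 2.23 ± 0.19 (SE, limma adjusted p = 2.33e-05). Ppp1r1c, an inhibitor of protein phosphatase 1, had 7.80, 8.44 and 7.02 in caudal samples, against 5.45, 5.83, 5.56 and 5.92 in rostral samples (2.06 ± 0.24 SE). Both were lowest among caudal samples on array 280, as were Scn11a, Pirt and Fxyd2. Genes of the extracellular matrix were Mfap5, a microfibril protein, with 9.43, 9.49 and 9.24 in caudal samples, against 6.89, 6.77, 7.39 and 7.74 in rostral samples (2.19 ± 0.19 SE), Lox, which cross-links collagen (1.40 ± 0.14 SE), and Lamb1, a laminin chain of basement membranes (1.33 ± 0.11 SE).

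Gas2l3, a protein that links actin and microtubules, had 9.36, 9.36 and 9.32 in caudal samples, against 7.35, 7.38, 7.38 and 7.46 in rostral samples, with little spread within either region (1.96 ± 0.06 SE, adjusted p = 7.21e-09). Ddn, dendrin, was higher by 1.90 ± 0.10 (SE). Crh, the gene of corticotropin-releasing hormone, was lower (−0.58 ± 0.12 SE, adjusted p = 0.0161), and lost its call without caudal array 278 (0.0704). Nor was Crh called without rostral array 279.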
